A study of Caenorhabditis elegans with 12 samples.

Results

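The citric acid cycle enzymes described here are 10 nuclear genes of *C. elegans*, chosen by name from the 46925 genes in each deposited table: *cts-1*, *aco-2*, *idha-1*, *idh-2*, *ogdh-1*, *sucl-1*, *sucl-2*, *sucg-1*, *fum-1* and *mdh-2*. All 10 passed the filter on low counts in every comparison. In day 1 adults, *idh-2* and *sucl-1* mRNAs were more abundant in the libraries labelled *sams-1* than in wild type, 2 of 10 members where 17.4% of all genes were higher. Both calls were lost in most fits that left out 1 library and when libraries were scaled on body wall muscle markers. In day 7 adults, *sucg-1*, *aco-2*, *mdh-2* and *sucl-2* were less abundant in the libraries labelled *sams-1*, 4 of 10 members where 29.4% of all genes were lower. Among the mRNAs of succinyl-CoA ligase, the share of *sucg-1* relative to *suca-1* and that of *sucl-2* relative to *sucl-1* lay below wild type in every library labelled *sams-1* at both ages, in a design whose exact test cannot go below p = 0.1.

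The citric acid cycle runs in the mitochondrial matrix, where it oxidizes the acetyl group of acetyl-CoA to carbon dioxide and passes the electrons to the respiratory chain. Its enzymes are encoded in the nucleus and imported into mitochondria. Some steps can be carried out by alternative subunits or isoenzymes, such as the ATP-forming and the GTP-forming succinyl-CoA ligase or the NAD-linked and the NADP-linked isocitrate dehydrogenase.

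RNA from whole adults was sequenced in 12 libraries, 3 in each of 4 groups, to follow gene expression with age when *sams-1*, the S-adenosylmethionine synthase gene, is reduced. The groups were wild type at day 1 of adulthood (D1), wild type at day 7 (D7), and animals of either age labelled *sams-1*. In the labels, all animals have the wild-type genotype and grew on HT115 bacteria, and the *sams-1* groups differ from the controls by RNAi, whereas the study names the same animals *sams-1(lof)*. The labels number the replicates 1, 3 and 5 in each group, and the study describes them as independent biological replicates. Whole animals hold all tissues, so a lower value can come from fewer cells of a type or from less RNA per cell, and these cannot be told apart.

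Total expected counts, the read counts per gene that RSEM estimates, ran from 3939023 to 7568388 per library, and the members had between 80 counts (the lowest value of *idh-2*) and 4763 counts (the highest of *aco-2*). The *sams-1* mRNA was not lower in the libraries labelled *sams-1*. Its level was 76.5, 51.4 and 95.7 TPM (a level corrected for transcript length, scaled to the same total in every library) in wild type and 105, 90.7 and 99.0 TPM under that label at D1, which overlapped, and 6.58, 10.1 and 8.49 against 18.2, 35.2 and 25.7 TPM at D7, where it was higher (log2 fold change 1.72, adjusted p = 0.000318, edgeR). This is not the direction that a reduction of the mRNA would give, and its cause was not tested. Groups are therefore named by label throughout, and every direction given for them rests on the label. Germ line markers were lower in the libraries labelled *sams-1* for 17 of 26 at D1 and 26 of 26 at D7, where 16.8% and 29.4% of all genes were (edgeR, adjusted p under 0.01). Their summed level was 5548 to 7476 TPM in wild type against 533 to 2006 TPM at D1, and 7593 to 7786 against 2379 to 2737 TPM at D7. By the same test, intestine markers were higher for 14 of 16 at D1 and 13 of 16 at D7, where 17.4% and 35.6% of all genes were. Their sums were 691 to 1060 against 2370 to 3984 TPM and 1031 to 1498 against 3239 to 6472 TPM. Body wall muscle markers were higher for 11 of 28 at D1, and higher for 20 and lower for 2 at D7, beside the same shares of all genes higher and lower. At an unadjusted p under 0.05, 23 of 28 were higher and 1 lower at D1, against 37.8% and 31.8% of all genes. Their sums were 1449 to 3080 against 4131 to 8676 TPM at D1 and 893 to 1181 against 1569 to 2190 TPM at D7. None of these 3 lists had a marker at 0 in a whole group, and their part in the differences described for the members was not tested. Replicate 1 stood apart among the wild-type D1 libraries, where it was the highest of the 3 for 10 of 10 members, by a median of 1.37 times and up to 2.79 times the mean of the other 2.

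The members are spread over chromosomes I, III, IV and X, with 5 of them on III (WBcel235, Ensembl release 115; coordinates span the whole gene, exons and introns). *cts-1* (citrate synthase) lies at III:10214771-10216635 and *aco-2* (mitochondrial aconitase) at III:7973717-7977355. *idha-1* (the alpha subunit of NAD-linked isocitrate dehydrogenase) lies at I:8606549-8608631, *idh-2* (the mitochondrial NADP-linked enzyme) at X:11216000-11218150, and *ogdh-1* (the first subunit of the 2-oxoglutarate dehydrogenase complex) at IV:4696979-4704011. The alpha subunits of succinyl-CoA ligase are encoded by *sucl-1* at X:14754026-14756081 and *sucl-2* at III:900138-901412, and its GTP-specific beta subunit by *sucg-1* at IV:7728913-7730650. *fum-1* (fumarase) lies at III:7465605-7467640 and *mdh-2* (mitochondrial malate dehydrogenase) at III:6606544-6608106. For 7 of the 10, an exon overlaps an exon of a gene on the opposite strand, and the sources used here do not state whether counting used strand, so reads in the overlap are uncertain. The neighbouring gene's count was largest relative to the member for *idh-2*, at 17.5% to 102% of its own count over the 12 libraries, and for *sucl-2*, at 8.19% to 61.2%. *ogdh-1*, *sucg-1* and *mdh-2* have no such overlap, and no member overlaps a gene on its own strand. No member had a fractional count in any library, as reads divided between similar genes would give.

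Levels differed widely among the members. In wild type at D7, the group with the closest replicates, *mdh-2* was highest at 388 ± 10.6 TPM (SD, n = 3), *cts-1* and *aco-2* followed at 229 ± 5.73 and 225 ± 15.5 TPM with overlapping ranges, and *idh-2* was lowest at 16.02 ± 1.34 TPM. The 6 members in between ran from 177 TPM for *idha-1* to 51.9 TPM for *sucl-1*, and no neighbours in that order overlapped. *mdh-2* also had the highest mean in both D1 groups, with a range that overlapped that of *cts-1*. In the libraries labelled *sams-1* at D7 the order changed at the top, with *cts-1* at 204 ± 40.02 TPM and *mdh-2* at 183 ± 33.5 TPM, which overlapped. *idh-2* had the lowest mean in all 4 groups, but among the D1 libraries labelled *sams-1* its 43.6 ± 2.44 TPM overlapped the 45.5 ± 32.1 TPM of *sucg-1*. The summed level of the 10 members was 1490.0 ± 423 TPM in wild type and 1515 ± 312 TPM in the D1 libraries labelled *sams-1*, and 1615 ± 8.47 against 1038 ± 144 TPM at D7.

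**Figure D1:**
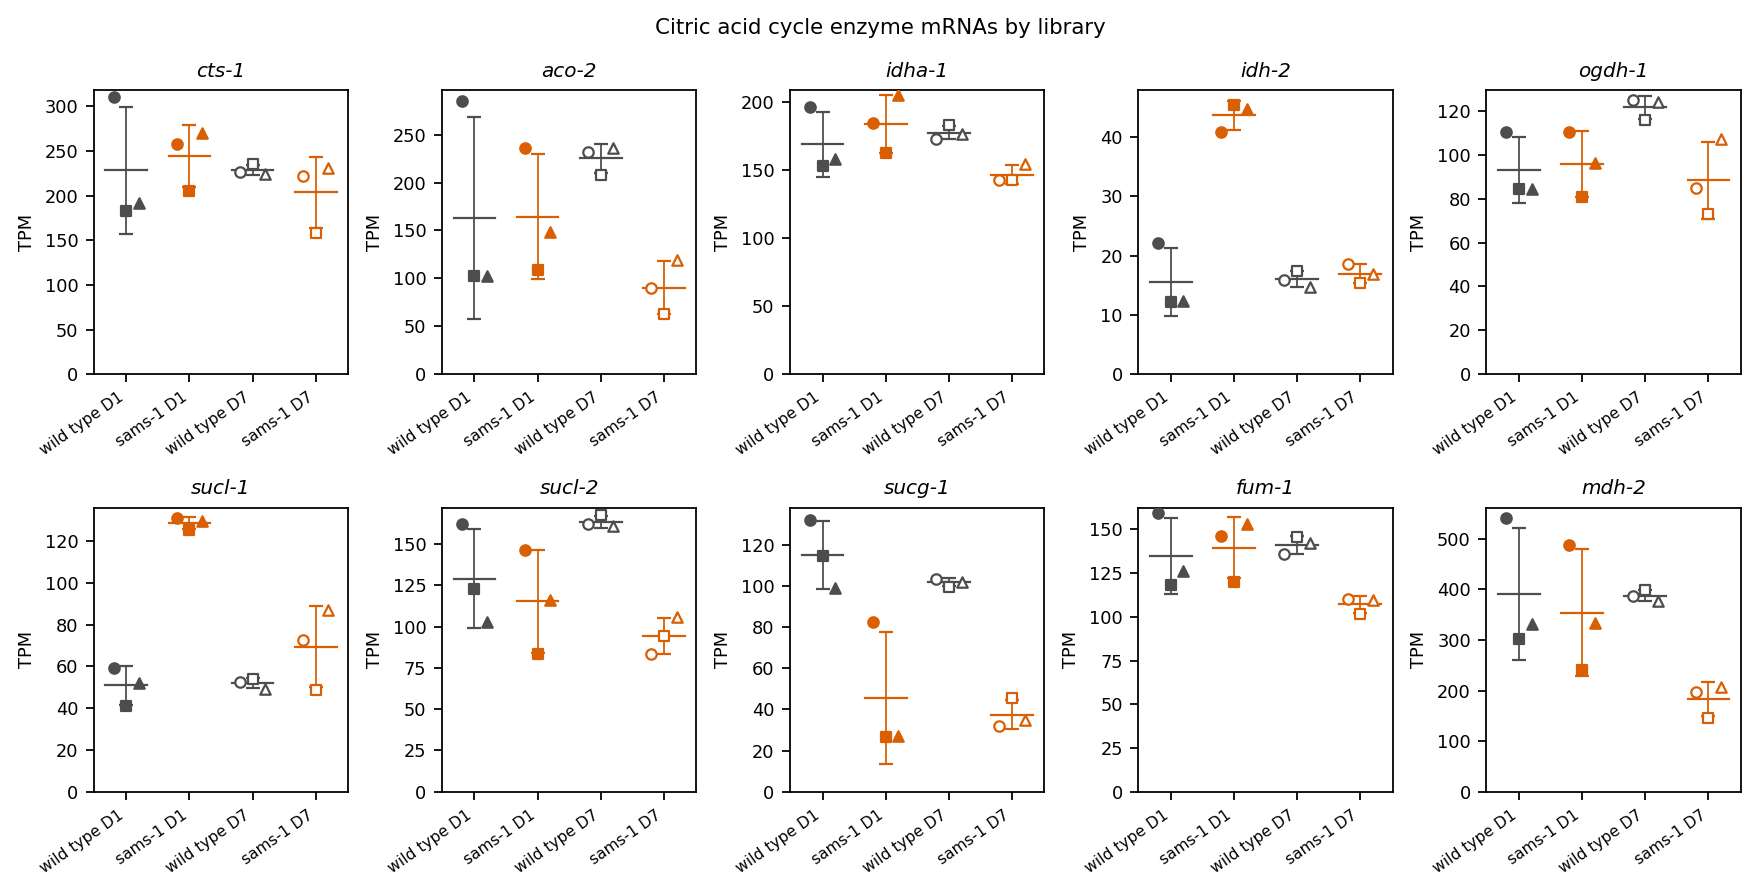
Level of each of the 10 enzyme mRNAs (TPM, linear axis from 0) in the 3 libraries of each group (circle, replicate 1; square, replicate 3; triangle, replicate 5; filled, D1; open, D7; grey, wild type; orange, labelled *sams-1*), with the mean as a line and the SD as a bar. *idh-2* and *sucl-1* stand apart in the D1 libraries labelled *sams-1*, and *sucg-1*, *aco-2*, *mdh-2* and *sucl-2* lie lower in the D7 libraries with that label than in wild type.

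At D1, the question was whether the enzymes already differed between the labelled groups in young adults. By edgeR's quasi-likelihood test with Benjamini-Hochberg adjustment over 12956 genes, 2 of 10 members were higher in the libraries labelled *sams-1* at an adjusted p under 0.01, where 17.4% of all genes were. None was lower, where 16.8% of all genes were. At an unadjusted p under 0.05, 1 member was lower and 2 higher, against 31.8% and 37.8% of all genes. DESeq2 called 1 lower and 2 higher. Shares over all genes were not counted for DESeq2 or for the alternative settings. The median log2 fold change was 0.11 over the members and 0.58 over all genes tested. In TPM, 2 of 10 members had every library labelled *sams-1* above every wild-type library, compared with 40.1% of all genes.

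The 2 that rose at D1 act at different steps. *idh-2*, whose enzyme forms NADPH as it oxidizes isocitrate, measured 22.2, 12.2 and 12.3 TPM in wild-type replicates 1, 3 and 5 and 40.8, 45.3 and 44.7 TPM in the libraries labelled *sams-1*. The groups did not overlap, and *idh-2* rose by 1.55 ± 0.32 on the log2 scale (SE; adjusted p = 0.00671, edgeR). The gene that overlaps *idh-2* on the opposite strand had 17.5% to 102% of its count, so reads in the overlap are uncertain. *sucl-1*, an alpha subunit of succinyl-CoA ligase, measured 59.3, 41.1 and 52.3 TPM in wild type and 131, 126 and 129.5 TPM in the libraries labelled *sams-1*. The libraries labelled *sams-1* were again all higher, with a log2 fold change of 1.40 ± 0.21 (adjusted p = 0.00329, edgeR). Either call was lost when 1 of 5 libraries was left out (wild-type replicate 1, 3 or 5, or replicate 3 or 5 of those labelled *sams-1*), with adjusted p up to 0.0373 for *idh-2* and 0.0237 for *sucl-1* by edgeR. With libraries scaled on the body wall muscle markers the values came to 0.31 for *idh-2* and 0.14 for *sucl-1*, and neither was called. That scaling moves all genes of a library alike, and it took the median of all genes from 0.58 to -0.70. *idh-2* was also not called with median-of-ratios factors (1.302), with no filter on low counts (1.33), or with the replicate number as a block (1.60).

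*sucg-1*, the GTP-specific beta subunit, had the largest difference in the other direction at D1. It measured 132, 114.5 and 99.0 TPM in wild type and 82.5, 26.8 and 27.2 TPM in the libraries labelled *sams-1*, so that all 3 lay below wild type but replicate 1 stood about 3.06 times above the mean of the other 2. Its log2 fold change of -1.33 ± 0.42 did not pass the threshold (adjusted p = 0.0280, edgeR). It passed at -2.11 without replicate 1 of the libraries labelled *sams-1* (adjusted p = 0.000299, edgeR) and at -1.90 without both D1 libraries numbered 1 (adjusted p = 0.000398, edgeR), a setting chosen after seeing the data. It also passed with DESeq2 (-1.55, adjusted p = 0.00531) and in the edgeR fit of all 12 libraries (-1.15, adjusted p = 0.00901). Under muscle scaling, where the median of all genes was -0.70, it passed at -2.69. In replicate 1 of the D1 libraries labelled *sams-1*, the germ line markers summed to 2006 TPM, against 611 and 533 TPM in replicates 3 and 5. The same library also had the highest body wall muscle sum (8676 TPM, against 4131 and 5164 TPM) and the lowest intestine sum (2370 TPM, against 3439 and 3984 TPM). The part of these marker levels in its *sucg-1* level was not tested.

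The other 7 members had log2 fold changes between -0.12 (*sucl-2*) and 0.18 (*idha-1*) at D1, none past the test (adjusted p from 0.466 to 0.899, edgeR). No direction can be given for them. The scaling moved the median of all genes from -0.70 with muscle markers to 1.16 with upper-quartile factors, and leaving out 1 library turned the sign of 6 of the 7, for example between -0.30 and 0.60 for *aco-2* and between -0.47 and 0.15 for *mdh-2*. Relative to the median of all genes, the members' median was -0.47, a difference that scaling leaves nearly as it is by construction, since it moves all genes of a library alike. The spread was wide among these libraries. *aco-2*, for example, measured 285, 102 and 102 TPM in wild type and 236, 108 and 148 TPM in the libraries labelled *sams-1*, and replicate 1 was the highest of both groups.

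**Figure D2:**
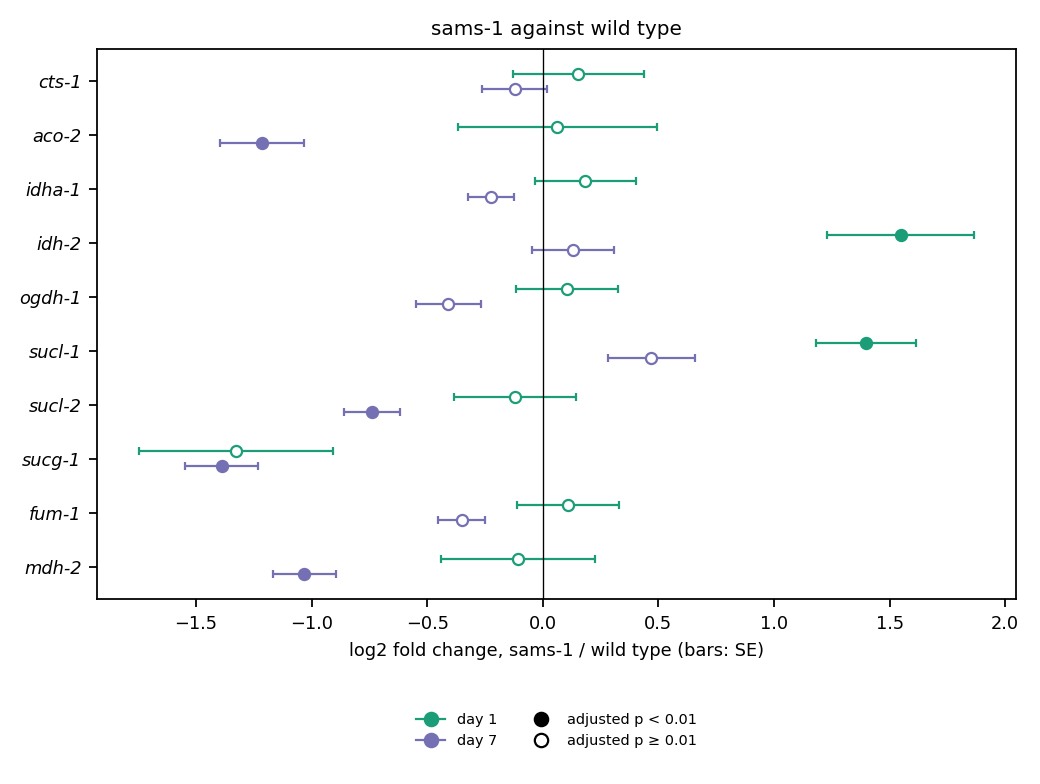
Log2 fold change (labelled *sams-1* over wild type, x axis) of each member at D1 (green) and D7 (purple), with the standard error as a bar and filled points for an adjusted p under 0.01 by edgeR. *idh-2* at 1.55 and *sucl-1* at 1.40 are the filled points at D1, and the 4 filled points at D7 run from -0.74 for *sucl-2* to -1.39 for *sucg-1*.

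At D7, the same question was asked in older adults, where the replicates lay closer together (biological coefficient of variation 0.186, against 0.432 at D1). 4 of 10 members were lower in the libraries labelled *sams-1*, where 29.4% of all 12242 genes were, and 0 were higher, where 35.6% of all genes were (edgeR's quasi-likelihood test, adjusted p under 0.01). At an unadjusted p under 0.05, 6 members were lower and 1 higher, against 36.0% and 42.1% of all genes. DESeq2 called 5 lower and 0 higher, with no share over all genes counted. The median log2 fold change was -0.38 over the members and 0.13 over all genes tested, a difference of -0.51. In TPM, 7 of 10 members had every library labelled *sams-1* below every wild-type library, compared with 38.1% of all genes.

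The enzymes of the first steps were split at D7. *cts-1*, which joins acetyl-CoA to oxaloacetate, measured 226, 235.3 and 225 TPM in wild type and 222, 158 and 231 TPM in the libraries labelled *sams-1*. Its groups overlapped, and the log2 fold change of -0.12 ± 0.14 (adjusted p = 0.445, edgeR) turned to 0.15 with library totals, to 0.34 with upper-quartile factors and to 0.02 without replicate 3 of the libraries labelled *sams-1*. *aco-2*, which turns citrate into isocitrate, measured 231, 207 and 236 TPM in wild type and 89.5, 63.2 and 119 TPM in the libraries labelled *sams-1*. All 3 of these lay well under the lowest wild-type library. *aco-2* fell, with a log2 fold change of -1.21 ± 0.18 (adjusted p = 0.000217, edgeR), and its call was lost only in the fit of all 12 libraries (-1.29, adjusted p = 0.0111, edgeR).

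The 3 dehydrogenases that act on isocitrate and 2-oxoglutarate did not pass the test at D7. *idha-1* ran from 173 to 182.5 TPM in wild type and from 142 to 154.5 TPM in the libraries labelled *sams-1*, without overlap, and its log2 fold change of -0.22 ± 0.10 (adjusted p = 0.0680, edgeR) turned to 0.05 with library totals and 0.23 with upper-quartile factors. *idh-2*, higher at D1, measured 15.9, 17.4 and 14.8 TPM in wild type and 18.6, 15.3 and 16.9 TPM in the libraries labelled *sams-1*. These overlapped (log2 fold change 0.13 ± 0.18, adjusted p = 0.510, edgeR), and the value was -1.19 under muscle scaling. *ogdh-1* ran from 116 to 125 TPM in wild type and from 72.9 to 107 TPM in the libraries labelled *sams-1*, with a log2 fold change of -0.41 ± 0.14 (adjusted p = 0.0231, edgeR) that turned to 0.05 with upper-quartile factors and passed at -0.61 without replicate 5 of the libraries labelled *sams-1*.

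The succinyl-CoA ligase genes differed from each other at D7. *sucg-1* measured 103, 99.6 and 102 TPM in wild type and 32.0, 45.5 and 34.9 TPM in the libraries labelled *sams-1*, and it fell the most of the 10 (log2 fold change -1.39 ± 0.16, adjusted p = 4.19e-05, edgeR). *sucl-2* measured 162, 168 and 161 TPM in wild type and 83.6, 94.2 and 105.5 TPM in the libraries labelled *sams-1*, and fell by 0.74 ± 0.12 on the log2 scale (adjusted p = 0.000385, edgeR). That call was lost with upper-quartile factors (-0.29, adjusted p = 0.0449, edgeR). The gene that overlaps *sucl-2* on the opposite strand had 8.19% to 61.2% of its count, so reads in the overlap are uncertain. *sucl-1*, the other alpha subunit, measured 52.7, 53.9 and 49.2 TPM in wild type and 72.8, 48.7 and 86.9 TPM in the libraries labelled *sams-1*. Replicate 3 of the latter lay below all wild-type libraries and the other 2 above them. The log2 fold change of 0.47 ± 0.19 did not pass (adjusted p = 0.0425, edgeR), passed at 0.66 without that replicate 3 (adjusted p = 0.000524, edgeR), and turned to -0.87 under muscle scaling.

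At the last steps of the cycle, *mdh-2* fell and *fum-1* lay just outside the threshold. *mdh-2*, which regenerates oxaloacetate, measured 386, 399 and 378 TPM in wild type and 198, 145 and 207 TPM in the libraries labelled *sams-1*. The 2 groups were far apart, and *mdh-2* fell by 1.03 ± 0.13 on the log2 scale (adjusted p = 9.80e-05, edgeR). *fum-1*, which hydrates fumarate to malate, ran from 136 to 146 TPM in wild type and from 102 to 110.0 TPM in the libraries labelled *sams-1*. Its groups did not overlap, but the log2 fold change was -0.35 ± 0.10 (adjusted p = 0.0105, edgeR), which passed without replicate 3 of the libraries labelled *sams-1* (-0.33), with median-of-ratios factors, DESeq2 and limma (each -0.39 to -0.40), and turned to 0.10 with upper-quartile factors.

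With age in wild type, none of the members differed past the test. edgeR's quasi-likelihood test on all 12 libraries called 0 of 10 lower and 0 higher between D7 and D1, where 2.94% of 14193 genes were lower and 2.94% higher. None passed an unadjusted p of 0.05, where 14.5% of all genes were lower and 15.5% higher, and DESeq2 called 0. The log2 fold changes ran from -0.17 (*sucg-1*) to 0.44 (*aco-2*), with a median of 0.06 over the members and 0.11 over all genes. The sign turned for 7 of the 10 members under at least 1 setting and for 6 of them when 1 library was left out, for example between -0.22 and 0.36 for *cts-1*, -0.24 and 0.37 for *mdh-2* and -0.22 and 0.46 for *idh-2*. *sucg-1* turned to 1.08 under muscle scaling, under which all genes moved up by a median of 1.35 and 9 of 10 members were called higher. The body wall muscle markers themselves summed to 1449 to 3080 TPM at D1 and 893 to 1181 TPM at D7 in wild type, with 5 of 28 lower. Sperm markers were lower for 2 of the 7 tested, with a median log2 fold change of -3.99. Their sums were 13.9, 44.1 and 233 TPM in wild-type D1 replicates 1, 3 and 5 and 2.89 to 6.34 TPM at D7.

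With age in the libraries labelled *sams-1*, 2 of 10 members were lower at D7 than at D1, where 6.34% of all genes were, and 0 were higher, where 3.29% of all genes were (edgeR, adjusted p under 0.01). At an unadjusted p under 0.05, 7 were lower and 0 higher, against 23.8% and 18.2% of all genes. DESeq2 called 5 lower and 0 higher, with no share over all genes counted. All 10 log2 fold changes lay below 0, from -0.37 (*ogdh-1*) to -1.63 (*idh-2*), although under muscle scaling 9 of the 10 lay above 0, as did the median of all genes at 1.52. The median was -0.61 over the members and 0.02 over all genes tested, a difference of -0.63. In TPM, 5 of 10 members had every D7 library below every D1 library, compared with 18.0% of all genes.

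The genes that fell with age in these libraries were those that had been higher at D1, and both comparisons use the same D1 libraries. *idh-2* went from 40.8, 45.3 and 44.7 TPM to 18.6, 15.3 and 16.9 TPM, and fell by 1.63 ± 0.27 on the log2 scale (adjusted p = 0.00261, edgeR). Its D7 libraries lay within the reach of the wild-type libraries of both ages. *sucl-1* went from 131, 126 and 129.5 TPM to 72.8, 48.7 and 86.9 TPM, and fell by 1.15 ± 0.22 (adjusted p = 0.00447, edgeR). The *idh-2* call was lost without replicate 3 at D1 or any one of the 3 libraries at D7 in the group labelled *sams-1* (adjusted p up to 0.0156, edgeR). That of *sucl-1* was lost without replicate 3 or 5 at D1 or any one of the 3 at D7 in that group, without wild-type D1 replicate 5 or D7 replicate 3 (adjusted p up to 0.0368, edgeR), and in the fit of the group's own 6 libraries (-1.12, adjusted p = 0.0161, edgeR). Under muscle scaling neither was called (-0.13 for *idh-2*, 0.33 for *sucl-1*).

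The remaining 8 members did not pass, with *mdh-2* (-1.18 ± 0.28, adjusted p = 0.0103, called with a replicate block, with upper-quartile factors, without a filter and by DESeq2) and *fum-1* (-0.64 ± 0.18, adjusted p = 0.0210) nearest to the threshold by edgeR. *idha-1* (-0.58), *aco-2* (-1.08), *sucl-2* (-0.52) and *cts-1* (-0.52) followed on the log2 scale. Without wild-type D1 replicate 1, 5 members were called lower, with no share over all genes counted for that fit. *sucg-1* had a value of -0.48 ± 0.34 that turned to 0.42 without replicate 1 of the D1 libraries labelled *sams-1*. Over the same ages and libraries the body wall muscle markers were lower for 14 of 28, with sums of 4131 to 8676 TPM at D1 and 1569 to 2190 TPM at D7. Sperm markers were lower for 6 of the 7 tested, with sums of 236 to 242 TPM and 10.2 to 26.6 TPM. Their median log2 fold change with age was -3.81 under this label and -3.99 in wild type. Of all genes, 6.34% were lower. Germ line markers went the other way in level, with sums of 533 to 2006 TPM at D1 and 2379 to 2737 TPM at D7 and a median log2 fold change of 0.74, although 1 of 26 was called higher. Their part in the members' values was not tested.

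**Figure D3:**
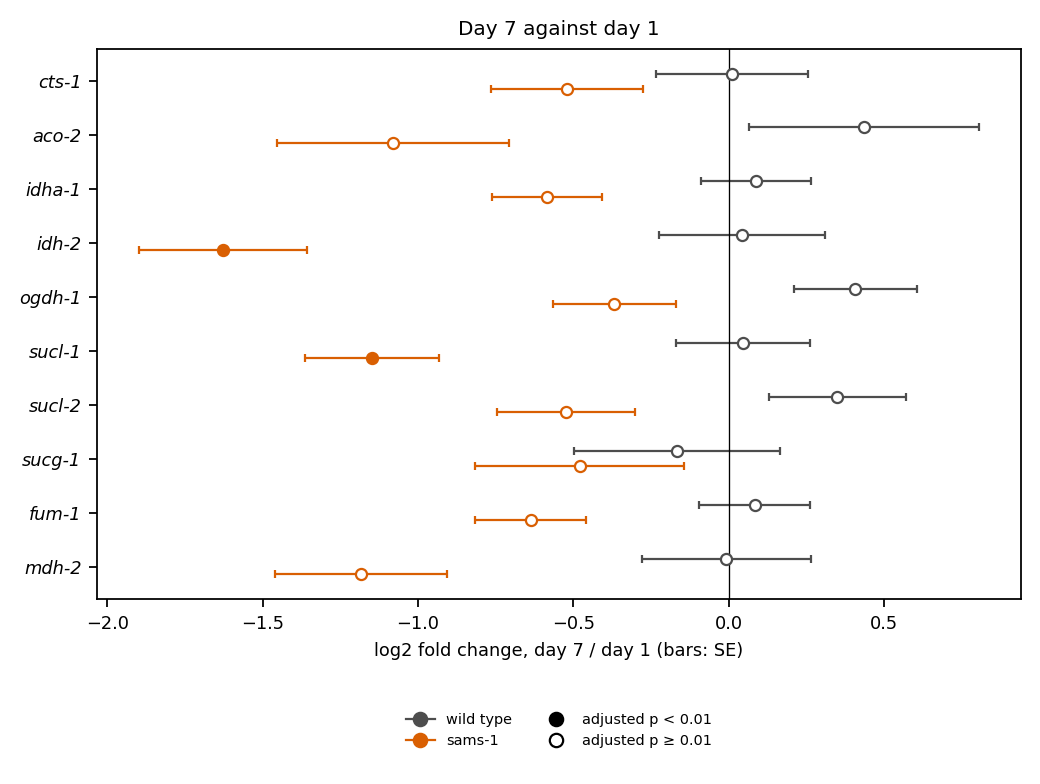
Log2 fold change with age (D7 over D1, x axis) of each member in wild type (grey) and in the libraries labelled *sams-1* (orange), with the standard error as a bar and filled points for an adjusted p under 0.01 by edgeR. The wild-type points lie between -0.17 and 0.44 and the orange points between -1.63 and -0.37, with *idh-2* and *sucl-1* filled.

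Whether the change with age differed between the 2 labels was tested as an interaction, on the same 12 libraries as the comparisons above. No member passed, with 0 of 10 lower and 0 higher, where 0.0141% of all genes were called lower and 0.0141% higher (edgeR's quasi-likelihood test, adjusted p under 0.01). All 10 values lay below 0, with a median of -0.82 against -0.05 over all genes, and 8 of 10 were lower at an unadjusted p under 0.05, as were 12.1% of the 14193 genes tested. *idh-2* came nearest at -1.67 ± 0.38 (adjusted p = 0.0553, edgeR), followed by *sucl-1* at -1.19 ± 0.30 (adjusted p = 0.0694, edgeR). *aco-2*, with the next largest value, stood at -1.52 ± 0.53 (adjusted p = 0.1496, edgeR). *sucg-1* had the smallest at -0.31 ± 0.47 (adjusted p = 0.744, edgeR), and its sign turned under muscle scaling (0.04), under limma on TPM (0.08) and in 5 fits without 1 library, namely replicate 1 at D1 (0.74) or replicate 1 (0.16) or 5 (0.05) at D7 of those labelled *sams-1*, and wild-type D1 replicate 5 (0.11) or D7 replicate 3 (0.02). *idh-2* was called by DESeq2 (-1.40, adjusted p = 0.00434) and by edgeR without wild-type D1 replicate 1 (-2.07, adjusted p = 0.00902).

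Succinyl-CoA ligase is built from an alpha subunit and either an ATP-specific or a GTP-specific beta subunit, so the relative levels of its mRNAs were compared within each library, where scaling between libraries cancels. *suca-1*, the ATP-specific beta subunit at X:10897678-10900114, measured 54.2, 36.3 and 39.2 TPM in wild type and 84.8, 68.2 and 75.1 TPM in the D1 libraries labelled *sams-1*. At D7 it measured 31.8, 31.3 and 30.4 TPM against 43.1, 32.9 and 39.2 TPM. Neither difference passed the test (edgeR, with a log2 fold change of 0.87 and adjusted p = 0.0138 at D1 and of 0.35 and adjusted p = 0.0417 at D7), although the libraries labelled *sams-1* lay above wild type at both ages, and both values turned negative under muscle scaling. *suca-1* was called higher at D1 with library totals (1.06), with upper-quartile factors (1.46), in the fit of all 12 libraries (1.05) and without both libraries numbered 1 (1.004), and at D7 with library totals (0.62), with upper-quartile factors (0.81) and without replicate 3 of the libraries labelled *sams-1* (0.43).

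*sucg-1* made up 70.9%, 75.9% and 71.7% of the beta-subunit TPM (*sucg-1* plus *suca-1*) in wild type at D1, and 49.3%, 28.3% and 26.6% in the libraries labelled *sams-1*. At D7 it made up 76.5%, 76.1% and 77.1% in wild type and 42.6%, 58.1% and 47.1% in the libraries labelled *sams-1*. Wild type was thus near 3 parts in 4 at either age, and no library labelled *sams-1* reached it. The mean share differed by -38.1 percentage points at D1 and by -27.3 at D7 (labelled *sams-1* minus wild type). An exact two-sided permutation test gave p = 0.1 at both ages, the smallest that 3 libraries against 3 allow.

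The alpha subunits went the same way. *sucl-2* made up 73.2%, 74.9% and 66.3% of the alpha-subunit TPM (*sucl-1* plus *sucl-2*) in wild type at D1, and 52.7%, 39.96% and 47.3% in the libraries labelled *sams-1*. At D7 its share was 75.4%, 75.7% and 76.6% in wild type and 53.5%, 65.9% and 54.8% in the libraries labelled *sams-1*. The groups did not overlap at either age, with mean differences of -24.8 and -17.8 percentage points and again an exact permutation p = 0.1 at both ages, the smallest possible. The uncertain reads where *sucl-2* overlaps a gene on the opposite strand enter these shares. The alpha-subunit sum was 180 ± 36.0 TPM in wild type and 244 ± 34.0 TPM in the D1 libraries labelled *sams-1*, and 215 ± 5.75 against 164 ± 25.6 TPM at D7. The beta-subunit sum was 158 ± 25.0 against 122 ± 39.8 TPM at D1, and 133 ± 2.17 against 75.8 ± 2.21 TPM at D7.

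Shares and germ line markers moved between the same groups. At D1, the library labelled *sams-1* with the highest germ line sum (replicate 1, 2006 TPM) also had the highest *sucg-1* and *sucl-2* shares of its group. At D7, germ line sums of 2379, 2610 and 2737 TPM in replicates 1, 3 and 5 stood beside *sucg-1* shares of 42.6%, 58.1% and 47.1%. The *sucl-2* shares were 53.5%, 65.9% and 54.8%. Replicate 1 had the lowest sum and the lowest value of both shares. Replicate 3 had the highest value of both shares, but replicate 5 had the highest sum. The part of germ line RNA in these shares was not tested.

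**Figure D4:**
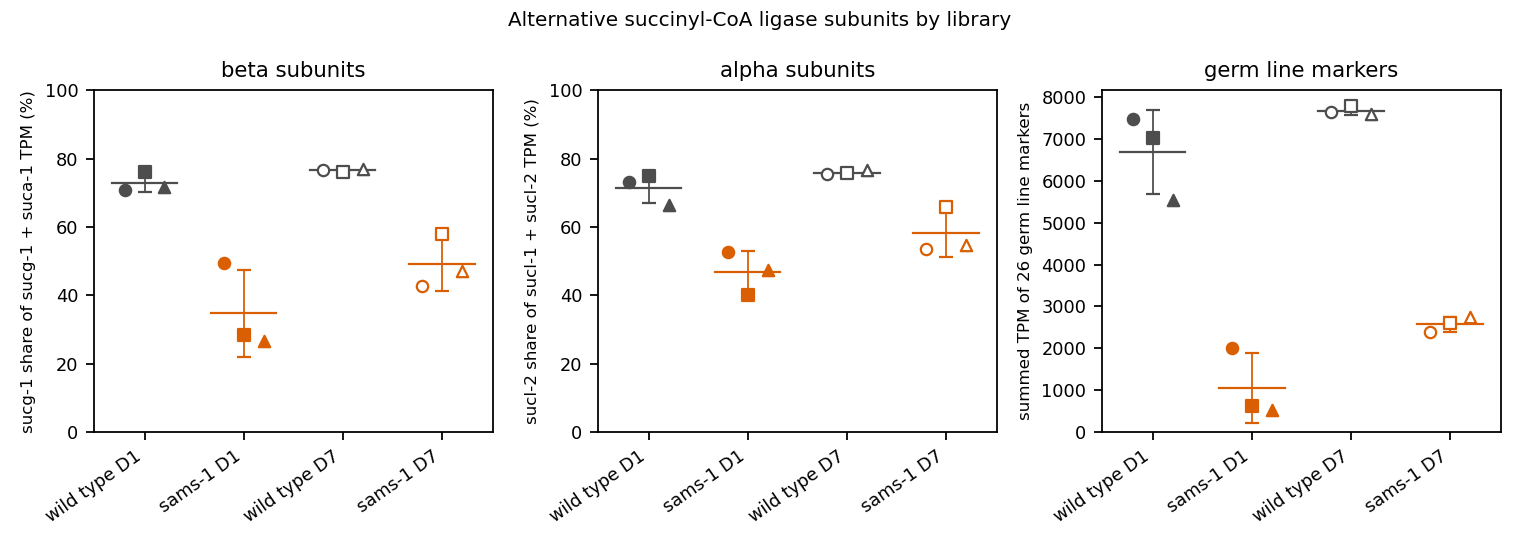
Share of *sucg-1* in the beta-subunit TPM (left, percent) and of *sucl-2* in the alpha-subunit TPM (middle, percent), and the summed level of 26 germ line markers (right, TPM), in each library of the 4 groups (circle, replicate 1; square, replicate 3; triangle, replicate 5; line, mean; bar, SD). In all 3 panels the libraries labelled *sams-1* lie below wild type at both ages.

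Among 11 other subunits of cycle enzymes, edgeR called 0 lower and 0 higher at D1, where 16.8% of all genes were lower and 17.4% higher. At an unadjusted p under 0.05, 2 were lower and 4 higher at D1, against 31.8% and 37.8% of all genes. At D7 edgeR called 5 lower and 1 higher, where 29.4% of all genes were lower and 35.6% higher. The medians were 0.25 at D1 and 0.00 at D7 on the log2 scale. At D7, *sdha-2*, a flavoprotein subunit of succinate dehydrogenase, measured 92.9, 88.9 and 93.4 TPM in wild type and 22.4, 30.6 and 29.0 TPM in the libraries labelled *sams-1*, and fell by 1.69 ± 0.14 (adjusted p = 1.12e-05, edgeR). *idhg-1*, a gamma subunit of NAD-linked isocitrate dehydrogenase and a partner of *idha-1*, measured 150.03, 151 and 143 TPM against 74.5, 67.4 and 65.1 TPM, and fell by 1.05 ± 0.11 (adjusted p = 2.6e-05, edgeR). The alternative gamma subunit *idhg-2* was low, at 1.83, 1.92 and 3.08 TPM against 8.70, 4.88 and 8.34 TPM, and rose by 1.72 ± 0.35 (adjusted p = 0.00143, edgeR), a call lost in the fit of all 12 libraries and under muscle scaling (0.42). Over the 3 libraries of a group, *sdha-2* made up 73.2% to 81.8% of the TPM of *sdha-1* plus *sdha-2* in wild type at D1 and 19.4% to 36.0% in the libraries labelled *sams-1*, and 76.2% to 79.5% against 42.3% to 66.5% at D7. *idhg-1* made up 91.0% to 96.6% of the TPM of *idhg-1* plus *idhg-2* against 68.8% to 86.8% at D1, and 97.9% to 98.8% against 88.7% to 93.3% at D7. Neither pair of groups overlapped, but both shares were chosen after their values were seen and carry no test.

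With age, the other subunits had 0 called in wild type, where 2.94% of all genes were lower and 2.94% higher. The interaction had 0 called, with 8 lower at an unadjusted p under 0.05, as were 12.1% of all genes. In the libraries labelled *sams-1*, 4 were lower with age and 0 higher (6.34% and 3.29% of all genes). The 3 with the largest fall were *suca-1* (-1.24 ± 0.19, adjusted p = 0.00205), *dld-1*, the dihydrolipoyl dehydrogenase shared by the pyruvate and 2-oxoglutarate complexes (-1.001 ± 0.22, adjusted p = 0.00871), and *idhb-1*, the beta partner of *idha-1* (-0.91 ± 0.19, adjusted p = 0.00674, all by edgeR). The *suca-1* call was lost without replicate 1 or 5 of the D7 libraries labelled *sams-1*. Those of *dld-1* and *idhb-1* were lost when any single library except wild-type D1 replicate 1 or 3 was left out.

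**Figure D5:**
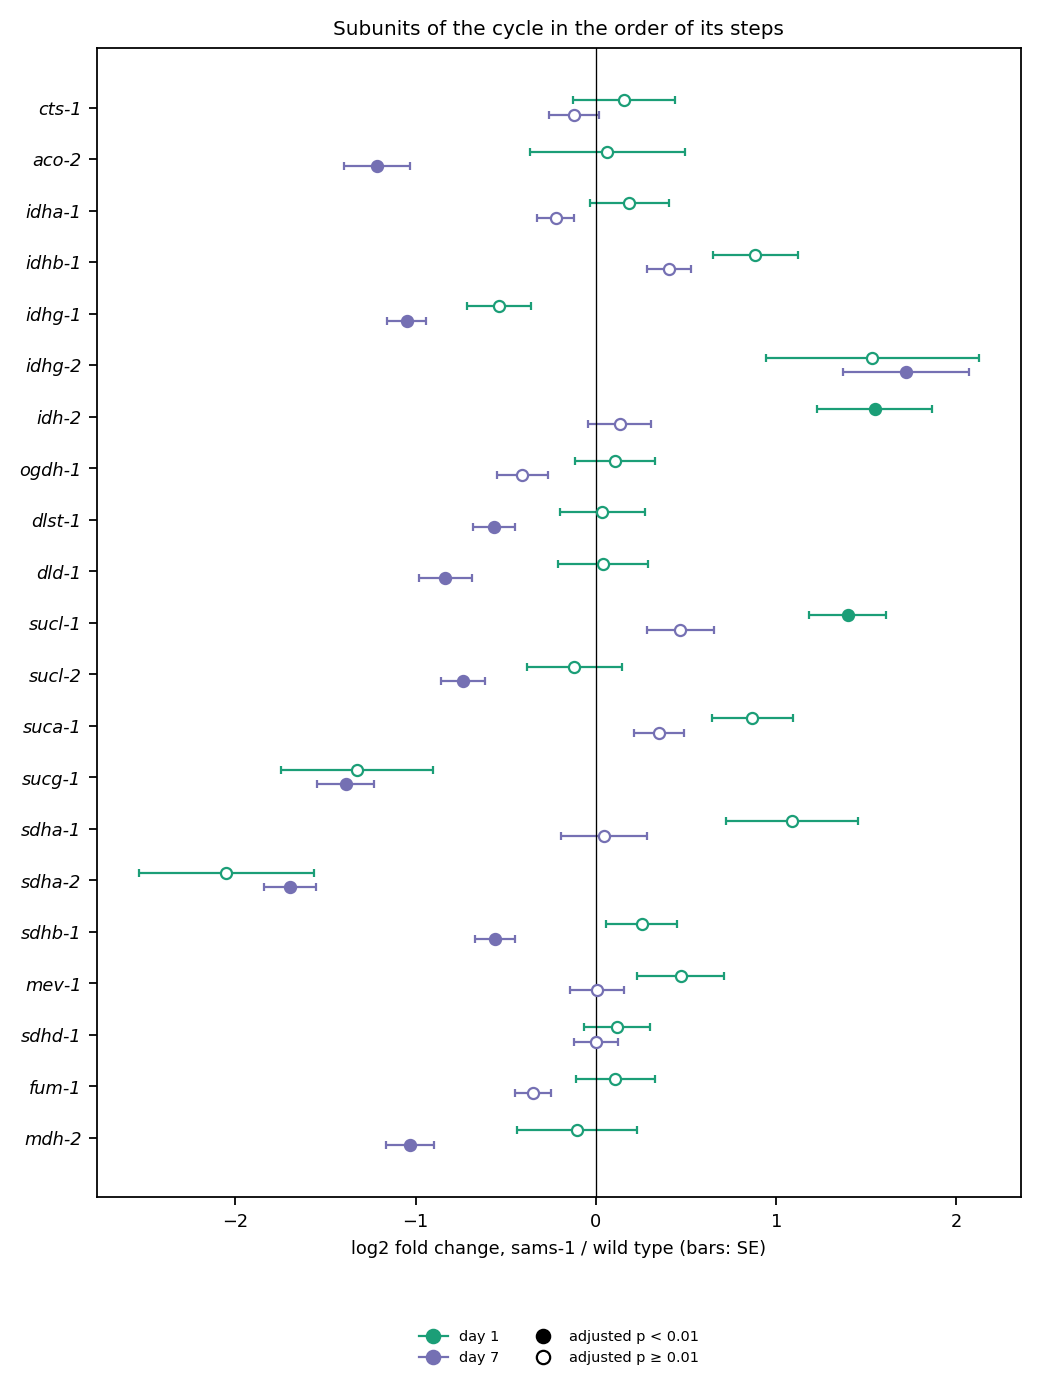
Log2 fold change (labelled *sams-1* over wild type, x axis) at D1 (green) and D7 (purple) of the 10 members and 11 other subunits in the order of the cycle from citrate synthase to malate dehydrogenase, with the standard error as a bar and filled points for an adjusted p under 0.01 by edgeR. Only *idh-2* and *sucl-1* are filled at D1, and 10 genes are filled at D7, of which *idhg-2* alone lies above 0.

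The 17 genes that feed the cycle or draw from it had 1 lower and 1 higher at D1, and 8 lower and 2 higher at D7 (edgeR, adjusted p under 0.01), beside the same shares over all genes, 16.8% lower and 17.4% higher at D1 and 29.4% lower and 35.6% higher at D7. *pdp-1*, the phosphatase that activates pyruvate dehydrogenase, measured 107, 103.5 and 80.5 TPM in wild type and 43.0, 21.6 and 21.8 TPM in the D1 libraries labelled *sams-1*, and fell at both ages (edgeR, log2 fold change -1.72 ± 0.29 with adjusted p = 0.00406 at D1, then -1.303 ± 0.13 with adjusted p = 2.7e-05 at D7). *aco-1*, the cytosolic aconitase, rose at both ages (edgeR, log2 fold change 2.09 ± 0.34 with adjusted p = 0.00364 at D1, then 0.99 ± 0.16 with adjusted p = 0.000337 at D7), whereas its mitochondrial counterpart *aco-2* overlapped between groups at D1 and fell at D7. The D1 calls of both genes were lost when any one of wild-type replicates 1 and 3 or of replicates 3 and 5 labelled *sams-1* was left out, that of *aco-1* also when wild-type replicate 5 was, and the D7 value of *aco-1* turned to -0.29 under muscle scaling. *icl-1*, the glyoxylate cycle enzyme that bypasses the decarboxylating steps, rose at D7 (1.11 ± 0.25, adjusted p = 0.00257, edgeR), a call that was lost when any one of wild-type replicates 3 and 5 or of replicates 1 and 5 labelled *sams-1* was left out, and a value that turned to -0.23 under muscle scaling.

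With age in the libraries labelled *sams-1*, 7 of the 17 fell and 0 rose (6.34% and 3.29% of all genes), and in wild type 0 were called (2.94% of all genes lower and 2.94% higher). The largest falls were those of *pck-2*, a phosphoenolpyruvate carboxykinase that draws oxaloacetate from the cycle (-1.45 ± 0.31, adjusted p = 0.00710), *aco-1* (-1.32 ± 0.29, adjusted p = 0.00756) and *gdh-1*, glutamate dehydrogenase, which feeds 2-oxoglutarate (-1.18 ± 0.27, adjusted p = 0.00908, all by edgeR). The calls of *pck-2* and *aco-1* were lost when any single library except wild-type D1 replicate 1 or 3 was left out, and that of *gdh-1* when any except wild-type D1 replicate 1 was.

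Across the 12 libraries most pairs of members correlated positively. Of 45 pairs of members, 42 had a Pearson correlation of log2 CPM (counts scaled to a common library size) above 0, with a median of 0.69 and a median of 0.69 within groups. These points share library scaling and depth, and the values are descriptive. Pairs of other genes were not counted, so the values do not show whether the members varied together more than other genes. The closest pair was *idha-1* and *fum-1* (r = 0.971) and the most opposed *sucl-1* and *sucg-1* (r = -0.579). The members' mean profile over 12 libraries was compared with 5598 other genes, those with a mean of at least 10 CPM and a standard gene name. Genes known only by a sequence name were not compared. The 5 most like it were *enol-1*, the glycolytic enolase (r = 0.989), *gdh-1* (0.973), *vdac-1*, the channel of the outer mitochondrial membrane (0.971), *ucr-1*, a core subunit of respiratory complex III (0.960), and *oatr-1*, ornithine aminotransferase (0.960). That mean profile, in standard deviations, was 0.91 in wild-type D1 replicate 1 and -0.59 and -0.73 in replicates 3 and 5, 0.26 to 0.37 in wild type at D7, 0.31 to 0.97 in the D1 libraries labelled *sams-1* and -1.24 to -0.54 in those at D7. The D7 libraries labelled *sams-1* overlapped only with wild-type D1 replicates 3 and 5.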

How the data were processed

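RNA of whole animals was measured in 12 libraries, 3 per group, and groups were taken from the sample labels. The authors used Trimmomatic 0.39 for trimming and STAR 2.710b (version as given in the submitters' processing notes) for alignment with the ws245 annotation, and RSEM 1.3.3 gave the deposited expected count of each gene. The deposited TPM values come from the same step and correct for transcript length within a library. Their own tests used DESeq2 1.38. FPKM columns were not used, and metabolite, qRT-PCR and earlier duplicate RNA-seq data of the study were not analysed here. Whether counting used strand is not given in the sources used here.

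Expected counts were rounded and tested with edgeR 4.0.16 in R 4.3.3 (TMM factors, filterByExpr, quasi-likelihood F test), on the 6 libraries of an age for the *sams-1* label and on all 12 for age and interaction. P-values were adjusted by Benjamini-Hochberg over all genes tested, with a threshold of 0.01 on the adjusted value. Shares of TPM were tested by exact permutation. The script was tested on simulated data with changes larger than those of the members and, for D1, less spread than the real libraries. That test does not show how often changes of the members' size are found. Alternatives were RLE, upper-quartile, library-total and muscle-marker scaling, no filter, DESeq2 1.42.0, limma 3.58.1 on log2(TPM + 1), a replicate block, other sets of libraries, a 2-fold threshold and each library left out. Total counts of 3939023 to 7568388 limit the precision of the lowest member, *idh-2*, with 80 to 451 counts.

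Members, lists and tests were chosen with earlier results of these data known. Besides the 10 members, the text names up to 3 genes per list and comparison, those with the largest log2 fold changes among the genes called, together with *suca-1*. It also names the 5 genes of most similar profile among those with a standard gene name. Same-numbered libraries of the 2 labels had correlated deviations of 0.081 to 0.195 at D1 and -0.004 to 0.045 at D7, and were not treated as pairs. Coordinates are those of WBcel235 in Ensembl release 115, which holds 46917 of the 46925 gene identifiers. The build behind the counts is not named in the tables.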

Additional observations from a re-analysis of the deposited data

How the results depend on the processing

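Counts of members called, with an adjusted p under 0.01, moved as follows. The shares of all genes called under these settings were not counted, so the counts do not show how the members stood relative to all genes. At D1, 1 member was lower with DESeq2, with all 12 libraries in 1 fit and without both D1 libraries numbered 1, 3 were lower under muscle-marker scaling, and leaving out single libraries gave 0 to 1. Higher at D1 were 1 with RLE factors, 1 with no low-count filter and 0 under muscle scaling, with 0 to 2 when single libraries were left out. At D7, 10 were lower under muscle scaling, and 1 was higher with library totals, with upper-quartile factors, and 0 to 1 without single libraries. With age in wild type 9 were higher under muscle scaling. With age in the libraries labelled *sams-1*, 0 were lower and 5 higher under muscle scaling, 5 were lower with DESeq2, 1 in the fit of the own 6 libraries, and 0 to 5 without single libraries. In the interaction 1 was lower with DESeq2 and 0 to 1 without single libraries.

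The replicate number as a block left 1 member higher at D1. At D1, deviations of same-numbered libraries correlated at 0.195, 0.081 and 0.134, and those of other pairs from -0.279 to 0.208. Not every library correlated best with its own number, and these values cannot tell whether the numbers mark pairs. No other count moved by over 1.5 times under the block.

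Over the 10 members and all alternatives, 142 of 930 log2 fold changes had another sign than reported, 19 under muscle scaling, 63 without 1 library and 60 under other settings. Of these, 42 were at D1 and 74 with age in wild type, where most values lay near 0, 9 at D7, 10 with age in the libraries labelled *sams-1* and 7 in the interaction. For values named in the text, muscle scaling, which moved the median of all genes by its construction, gave log2 fold changes at D1 of -0.40 for *suca-1*, and at D7 of -0.29 for *aco-1*, -0.23 for *icl-1*, -1.19 for *idh-2*, -0.97 for *suca-1* and -0.87 for *sucl-1*. With age it gave 1.08 for *sucg-1* in wild type, and in the libraries labelled *sams-1* 0.23 for *aco-1*, 0.43 for *aco-2*, 0.97 for *cts-1*, 0.50 for *dld-1*, 0.88 for *fum-1*, 0.32 for *gdh-1*, 0.93 for *idha-1*, 0.60 for *idhb-1*, 0.33 for *mdh-2*, 1.14 for *ogdh-1*, 0.073 for *pck-2*, 0.26 for *suca-1*, 1.12 for *sucg-1*, 0.33 for *sucl-1* and 1.01 for *sucl-2*. The interaction of *sucg-1* was 0.044 under muscle scaling and 0.085 with limma on log2(TPM + 1). At D7, library totals gave 0.15 for *cts-1* and 0.047 for *idha-1*, and upper-quartile factors 0.34 for *cts-1*, 0.10 for *fum-1*, 0.23 for *idha-1* and 0.046 for *ogdh-1*. Without single libraries, *cts-1* at D7 ran from -0.26 to 0.018, *sucg-1* with age under the *sams-1* label from -0.69 to 0.42 and its interaction from -0.52 to 0.74. Among genes outside the 10 members, the age calls of *dld-1*, *idhb-1*, *gdh-1*, *aco-1* and *pck-2* were also lost under at least 1 other tool, scaling or set of libraries, and at D7 *aco-1* and *icl-1* lost theirs in the fit of all 12 libraries. The cause of the turns outside muscle scaling was not tested.

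The shares of *sucg-1* and *sucl-2* kept their direction when taken from expected counts. Their groups do not overlap, so leaving out 1 library could not turn it. With 3 libraries per group the exact test cannot pass 0.05, and the wide spread at D1 limits every D1 fold change.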
